A study of Mus musculus with 12 samples.

Results

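The suppressors of cytokine signaling (SOCS) family has 8 members, Socs1 to Socs7 and Cish, and their transcripts were followed in 12 mouse prostate tumors. They were found by matching the Ensembl ID of each row of the count table to the 8 symbols, which gave 8 of 55401 genes. All 8 members were among the 20818 genes that passed the filter on low counts and were tested. The tumors grew under the skin of both flanks of mice from 125000 TC2Ras cells per injection, a Ras-driven mouse prostate cancer line, and each library holds the flank tumors of 1 mouse, taken on day 21. Control tumors grew from TC2Ras cells alone in mice whose water held 0 ppb inorganic arsenic (iAs). ASC tumors also received 1% ASC-GFP cells, adipose-derived stromal cells that had been isolated from male mice and carry a fluorescent protein, again at 0 ppb iAs. As300 tumors grew from TC2Ras cells alone in mice whose water held iAs at 300 ppb, and ASC_As300 tumors combined 1% ASC-GFP cells with 300 ppb iAs. Each group had 3 tumors. All 12 mice were kept on a low-arsenic AIN-76A diet and Milli-Q water before implantation. The strain, sex and age of the host mice are not given in the sources used here. The sample labels name the cell type as adipose-derived stromal cells, whereas the protocols describe whole tumors, so the libraries are treated here as bulk tumor. In the GENCODE annotation (GRCm38), Socs1 (ENSMUSG00000038037) lies at chr16:10782240-10785536 on the minus strand, Socs3 (ENSMUSG00000053113) at chr11:117966079-117970047 on the minus strand and Cish (ENSMUSG00000032578) at chr9:107296026-107302784 on the plus strand. Since the tissue is bulk, fewer cells of a type and less RNA per cell cannot be told apart in any value given here.

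SOCS proteins close a feedback loop on cytokine receptors. A cytokine activates Janus kinases (JAKs) and STAT factors, the STATs switch on SOCS genes, and the SOCS proteins then bind phosphorylated receptors or JAKs through an SH2 domain and recruit elongin, cullin and ubiquitin through the C-terminal SOCS box. SOCS1 and SOCS3 can also inhibit the kinase directly. SOCS1 is best known as the brake on interferon gamma, SOCS3 as the brake on interleukin 6 type cytokines and STAT3, CISH and SOCS2 as STAT5 targets that restrain interleukin 2, growth hormone and prolactin signals, and SOCS4 to SOCS7 mainly for receptor tyrosine kinase and insulin signals.

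The promoters of the members most often described as induced are printed because they show which STAT and interferon regulatory factor (IRF) letters lie at their starts. The RefSeq promoter table (build GRCm38.p6) held an entry for 4 of the 8 members: Socs1, Socs3, Socs4 and Cish. Both strands of each 300-base window, 250 bases before and 50 after the start, were searched for the STAT palindrome TTCNNNGAA, an IRF element made of a pair of GAAA runs with 2 bases of any kind between them, and the AP-1 element TGANTCA. Capitals mark the matches to the IRF element in Socs1 and to the STAT palindrome in Socs3 and Cish. The Socs1 stretch is chr16:10785537-10785786 on the minus strand, that of Socs3 is chr11:117969367-117969616 on the minus strand, and that of Cish is a 30-base stretch over the start, chr9:107296654-107296683 on the plus strand. The Socs3 and Cish stretches lie inside the GENCODE spans given above, because their RefSeq starts are downstream of the GENCODE gene starts. Positions below are counted from the RefSeq starts.
Socs1: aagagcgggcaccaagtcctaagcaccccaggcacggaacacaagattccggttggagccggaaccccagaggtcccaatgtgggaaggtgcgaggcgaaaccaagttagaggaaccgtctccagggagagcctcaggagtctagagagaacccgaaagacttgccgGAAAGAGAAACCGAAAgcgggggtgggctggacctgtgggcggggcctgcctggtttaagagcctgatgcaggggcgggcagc
Socs3: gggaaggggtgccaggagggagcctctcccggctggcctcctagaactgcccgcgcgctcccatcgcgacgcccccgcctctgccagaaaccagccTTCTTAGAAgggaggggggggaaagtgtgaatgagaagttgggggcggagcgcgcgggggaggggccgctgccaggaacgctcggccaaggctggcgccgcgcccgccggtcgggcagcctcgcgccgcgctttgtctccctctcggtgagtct
Cish: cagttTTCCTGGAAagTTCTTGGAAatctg
The Socs1 window held 2 IRF elements on the forward strand, starting 83 and 77 bases before the start and sharing bases with each other, and no STAT palindrome. At least 1 IRF element was in 3.44% of the 32851 promoters of the table, and 2 or more were in 0.225%. The Socs3 window held 1 STAT palindrome, 154 bases before the start, and the Cish window held 2, at bases 1 and 12 counted from the start. At least 1 STAT palindrome was in 8.3% of promoters and 2 or more in 0.457%. No AP-1 element, which 7.81% of promoters held, was in the 4 windows, and the Socs4 window held no match to any of the 3 motifs. These matches describe letters and say nothing of which factor binds.

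Total counts per tumor lay between 39157647 and 55168642, and every member had at least 59 counts in every tumor. Levels are given as CPM, in which each count is scaled by the TMM-normalized size of its library. Control replicate 1 stood apart on the first principal component, which held 17.27% of the variance, at 101.8 against -64.9 to 22.5 for the other 11 tumors. This tumor also had the highest summed B cell markers, at 211.5 CPM against 4.50 to 18.1 CPM in the others. The prostate markers Pbsn, Tmprss2 and Hoxb13 were at 0 or close to it and did not pass the filter. Fibroblast markers were high, with summed levels of 5340 to 10090 CPM, and of the epithelial markers only Krt8 was above 20 CPM in every tumor.

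The members differed in level by more than the groups did. Levels of different genes are compared here per kilobase (kb) of merged exons. Socs5 and Socs3 were the most abundant, at 18.8 ± 1.66 and 18.2 ± 2.46 CPM per kb (SD, n = 12). Socs5 was the higher of the pair in 5 of 12 tumors, so these neighbours did not differ beyond their spread. Socs3 was 3.48-fold above the next member, Socs4, and their ranges did not overlap. Socs4, Socs7, Socs6 and Socs1 followed at 5.22, 4.88, 4.62 and 4.53 CPM per kb, with overlapping ranges between all neighbours. Cish was at 2.28 ± 0.32 CPM per kb (SD, n = 12), and its range overlapped that of Socs1. Socs2 was lowest at 0.423 ± 0.134 CPM per kb (SD, n = 12), below Cish in 12 of 12 tumors and without overlap.

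By merged exons, the places in this order differed between the tumors with and without ASC. Socs5 was first and Socs3 second in Control and As300, and the reverse held in ASC and ASC_As300, where Socs4, Socs7 and Socs6 each stood 1 place lower and Socs1 stood 3 places higher. In Control tumors it was in place 6 of 8, with a mean of 2.22 CPM per kb against 2.18 for Cish. In ASC tumors it was in place 3, with a mean of 6.10 CPM per kb, and in ASC_As300 tumors in place 3 with 6.13 CPM per kb, whereas in As300 tumors it kept place 6 with 3.68 CPM per kb. Socs1 was below each of Socs4, Socs6 and Socs7 in 3 of 3 Control and 3 of 3 As300 tumors, and above all of them in 2 of 3 ASC and 2 of 3 ASC_As300 tumors. These places depended on the length used. By the longest transcript, mean Socs6 was above mean Socs1, at 8.10 CPM per kb in ASC and 8.53 in ASC_As300 tumors. Mean Socs5 then stayed above mean Socs3, at 24.8 against 22.0 in ASC and 26.4 against 23.7 in ASC_As300 tumors. The summed level of the family was 57.2 ± 1.54 CPM per kb in Control and 60.2 ± 3.22 in ASC tumors (SD, n = 3 each), with overlapping ranges. It was 55.3 ± 3.30 in As300, which overlapped with Control, and 63.0 ± 2.66 in ASC_As300 tumors (SD, n = 3 each), where the range of 60.4 to 65.7 lay above the Control range of 55.6 to 58.6. Those sums use merged exons, and by the longest transcript the ranges of ASC_As300 and Control overlapped. Within the sum by merged exons, the share of Socs1 was 3.897 ± 0.742% in Control, 10.2 ± 2.28% in ASC, 6.66 ± 0.47% in As300 and 9.74 ± 1.57% in ASC_As300 tumors (SD, n = 3 each).

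**Figure D1:**
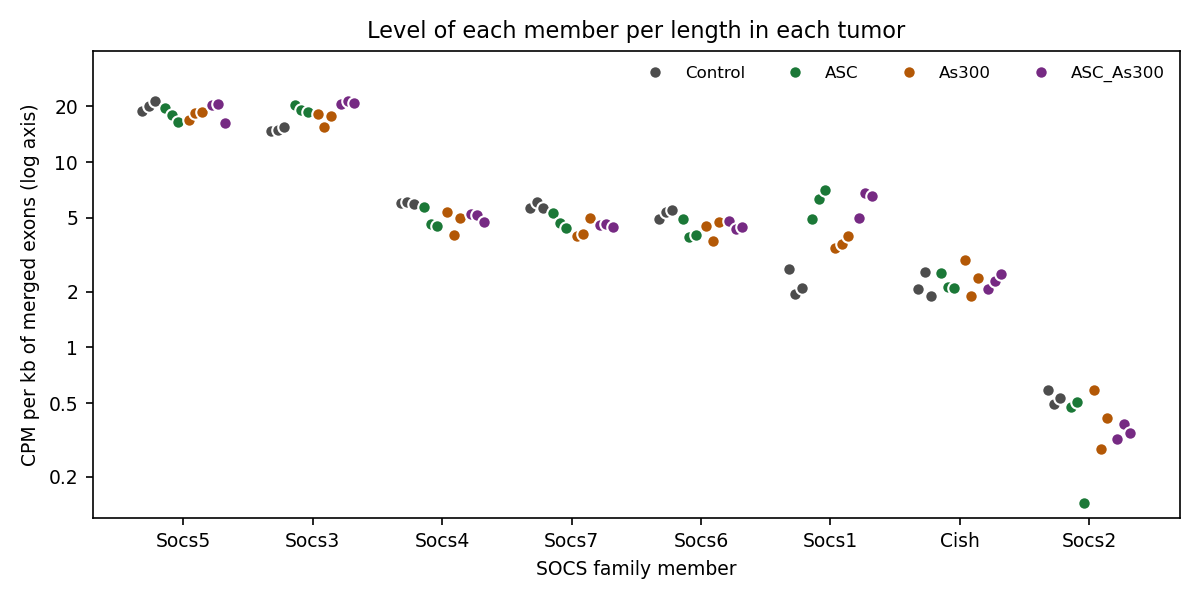
CPM per kb of merged exons on a log axis for the 8 members in each of the 12 tumors, with 1 point per tumor, coloured by group, and members ordered by their mean over all tumors. Socs5 and Socs3 lie highest and Socs2 lowest, and the Socs1 points of the ASC and ASC_As300 tumors, at 4.94 to 7.05 CPM per kb, lie above those of the Control and As300 tumors.

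Socs1, the inhibitor of JAK kinases downstream of interferon gamma, rose in tumors that received ASC. Its TMM-normalized CPM was 7.67, 5.64 and 6.10 in the Control tumors, 14.4, 18.4 and 20.5 in the ASC tumors, 10.01, 10.5 and 11.6 in the As300 tumors, and 14.5, 19.9 and 19.1 in the ASC_As300 tumors. The 6 tumors with ASC were all above the 6 without, and the 3 As300 tumors lay above the 3 Control tumors and below every tumor with ASC. Calls required an edgeR adjusted p below 0.05 together with a difference of 1.5-fold or more. Socs1 was 2.74-fold higher in ASC than in Control (log2 fold change 1.45, SE 0.18, adjusted p = 0.00166) and 2.76-fold higher in ASC_As300 than in Control (log2 fold change 1.46, SE 0.18, adjusted p = 0.00137). Both were called. These comparisons share the 3 Control tumors, as do all comparisons against Control, so that they are not independent of each other. Over both iAs levels Socs1 was 2.14-fold higher with ASC (log2 fold change 1.096, SE 0.13, adjusted p = 0.000312). Without Control replicate 1 the log2 fold changes were 1.605 in ASC, 1.607 in ASC_As300 and 1.16 over both iAs levels, and all were called. Each edgeR p-value rests on the spread between mice within groups, estimated over all 12 tumors in 1 fit, with 3 mice per group.

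In the tumors of mice given iAs alone, Socs1 lay between Control and ASC. Its mean was 10.7 ± 0.79 CPM in As300 and 6.47 ± 1.06 CPM in Control (SD, n = 3 each), a 1.65-fold difference with a 95% confidence interval of 1.26 to 2.17. The groups did not overlap, but the adjusted p from edgeR was 0.0511 and the difference was not called. The call depended on the settings, with adjusted p-values from 0.00253 under DESeq2 to 0.19 without As300 replicate 2, and 0.073 without Control replicate 1. ASC_As300 tumors were 1.67-fold above As300 tumors (log2 fold change 0.74, SE 0.18, adjusted p = 0.0972), without overlap and not called. ASC_As300 and ASC tumors did not differ beyond their spread, at 17.8 ± 2.89 and 17.7 ± 3.10 CPM (SD, n = 3 each), with a 95% confidence interval of the ratio from 0.77 to 1.31.

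**Figure D2:**
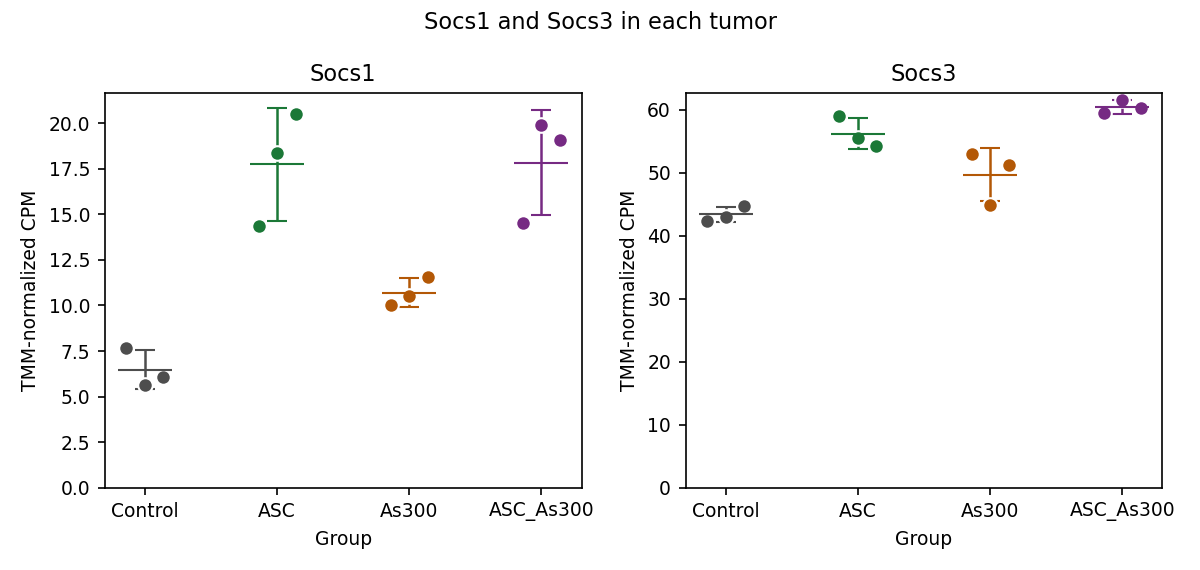
TMM-normalized CPM of Socs1 (left) and Socs3 (right) in each tumor, by group, with the mean as a horizontal line and the SD as error bars (n = 3 per group) and the vertical axes starting at 0. The 6 tumors with ASC lie above the 6 without for both genes, and the As300 tumors, at 10.01 to 11.6 CPM of Socs1 and 45.0 to 53.0 CPM of Socs3, lie between Control and ASC.

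Socs3, the inhibitor that binds the shared interleukin 6 receptor chain, showed the same order of groups with smaller differences. Its CPM was 42.4, 43.1 and 44.8 in the Control tumors, 59.0, 55.5 and 54.2 in the ASC tumors, 53.0, 45.0 and 51.3 in the As300 tumors, and 59.5, 61.6 and 60.3 in the ASC_As300 tumors. The Control tumors were below all 9 others, and the 6 tumors with ASC were above the 6 without. Socs3 was 1.39-fold higher in ASC_As300 than in Control (95% confidence interval 1.24 to 1.57, adjusted p = 0.00934), which passed the p threshold but not the 1.5-fold minimum, so that it was not called. It was 1.295-fold higher in ASC (95% confidence interval 1.15 to 1.46, adjusted p = 0.0505) and 1.15-fold higher in As300 (95% confidence interval 1.02 to 1.29, adjusted p = 0.147). Over both iAs levels it was 1.26-fold higher with ASC (adjusted p = 0.00602), again under the minimum fold. ASC_As300 exceeded As300 by a log2 difference of 0.28 (adjusted p = 0.169) and ASC by 0.11 (adjusted p = 1), both without overlap. Over all genes tested, 11.3% were higher without overlap in ASC_As300 against As300 and 4.17% in ASC_As300 against ASC. The share of Socs3 in the family sum by merged exons was 26.2 ± 0.33% in Control and 32.3 ± 0.30% in ASC tumors (SD, n = 3 each), and that of Socs5 was 35.2 ± 1.29% and 29.9 ± 0.94%.

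Cish and Socs2, both known as STAT5 targets, showed no called difference. Cish was at 13.3, 16.4 and 12.2 CPM in Control, 16.2, 13.6 and 13.5 in ASC, 19.1, 12.2 and 15.3 in As300, and 13.2, 14.6 and 16.0 in ASC_As300 tumors. The groups overlapped, and the log2 fold changes against Control of 0.05, 0.15 and 0.065 had 95% confidence intervals from -0.34 to 0.43, -0.23 to 0.54 and -0.32 to 0.45. The kit marked strand, but the strand setting of the counting is not given in the sources used here, and Gm17040, a pseudogene on the opposite strand that overlaps Cish, had 0 to 17 counts per tumor, 0.819% of the Cish counts in all. Socs2, which restrains growth hormone signaling, was at 5.58, 4.72 and 5.08 CPM in Control, 4.51, 4.85 and 1.38 in ASC, 5.58, 2.68 and 3.97 in As300, and 3.03, 3.65 and 3.30 in ASC_As300 tumors. ASC replicate 3 was the lowest tumor by far with 59 counts, and only the ASC_As300 tumors did not overlap with Control. The Socs2 log2 fold changes of -0.52, -0.33 and -0.62 had adjusted p-values of 0.575, 0.674 and 0.478. Without ASC replicate 3 the value in ASC was -0.13.

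Socs4 and Socs5, which are linked to epidermal growth factor receptor turnover, lay mostly lower than in Control. Socs4 was at 41.5, 42.0 and 41.0 CPM in Control, 39.2, 31.8 and 31.1 in ASC, 37.0, 27.7 and 34.6 in As300, and 36.2, 35.8 and 32.9 in ASC_As300 tumors. All 9 other tumors were below the Control tumors, yet the log2 fold changes of -0.29, -0.33 and -0.25 had adjusted p-values of 0.268, 0.115 and 0.339. Socs5 was at 122 to 138 CPM in Control tumors, 106 to 125 in ASC, 109 to 120 in As300 and 105 to 132 in ASC_As300 tumors. Its groups overlapped with Control except for As300, where the log2 fold change was -0.17 (adjusted p = 0.339).

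Socs6 and Socs7, which bind insulin receptor substrates and receptor kinases, behaved like Socs4. Socs6 was at 56.3 to 62.6 CPM in Control tumors, 44.9 to 55.9 in ASC, 42.5 to 54.1 in As300 and 49.6 to 54.4 in ASC_As300 tumors. It was lower without overlap in each group, with log2 fold changes of -0.29, -0.28 and -0.22 and adjusted p-values of 0.228, 0.139 and 0.361. Socs7 was at 41.0, 44.1 and 40.9 CPM in Control, 38.8, 34.3 and 32.0 in ASC, 28.9, 29.9 and 36.1 in As300, and 33.2, 33.9 and 32.6 in ASC_As300 tumors. The Control tumors were again above all 9 others. Socs7 in As300 came closest to the threshold among the lower members, at 0.75-fold of Control (log2 fold change -0.41, SE 0.10, adjusted p = 0.0515), and 1.5-fold lower was not reached. In ASC and ASC_As300 its log2 fold changes were -0.26 and -0.34 (adjusted p = 0.246 and 0.159). Over the 12 tumors, Pearson's r of log2 CPM was 0.93 for Socs4 with Socs6, 0.79 for Socs6 with Socs7 and 0.77 for Socs4 with Socs7, and these points share libraries and groups.

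**Figure D3:**
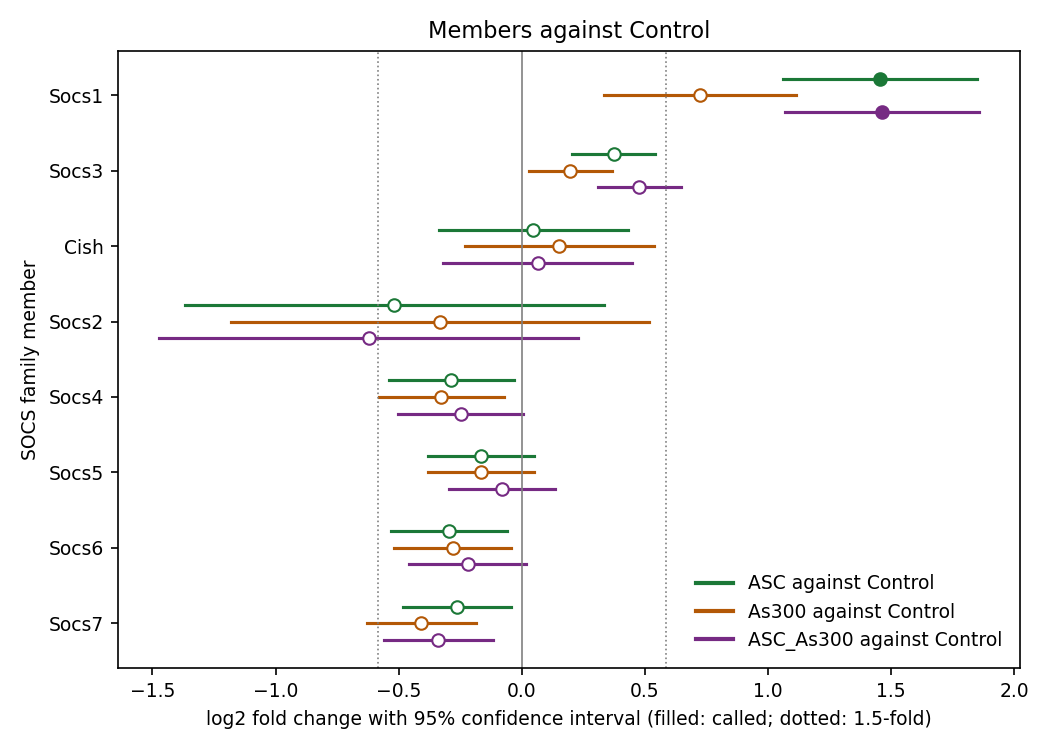
log2 fold change against Control (horizontal axis) of each member (vertical axis) in ASC, As300 and ASC_As300 tumors, with 95% confidence intervals from the edgeR fit, filled points for called differences and dotted lines at 1.5-fold. Socs1 in ASC and in ASC_As300 are the filled points, at 1.45 and 1.46, Socs3 lies to the right of 0, and Socs2, Socs4, Socs5, Socs6 and Socs7 lie to the left.

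Counted over the family, 1 of 8 members was called in ASC against Control, 0 of 8 in As300 and 1 of 8 in ASC_As300. Over all genes tested, the percentages called in either direction were 0.721, 1.06 and 0.807, those called higher were 0.706, 0.701 and 0.783, and that called lower in As300 was 0.355. In ASC_As300 against As300, 0 of 8 members were called, beside 0.855% of all genes (0.793% higher). For the ASC effect over both iAs levels, 1 of 8 was called, beside 1.45% of all genes (1.36% higher). With edgeR, 5 of 8 members had an unadjusted p under 0.05 in ASC, 5 of 8 in As300 and 3 of 8 in ASC_As300, each against Control. Beside these stood 15.4%, 24.1% and 15.2% of all genes. In ASC_As300 against As300 it was 2 of 8 members, beside 9.98% of all genes. DESeq2 called 1 member, Socs1, in As300 against Control and in ASC_As300 against As300. Beside these it called 816 and 399 of the 33928 genes in its fit. The edgeR background in As300 against Control itself rested on single tumors, since leaving out 1 of the 12 tumors moved the genes called there from 220 to between 0 and 399, and 7 of the 12 left 2 or fewer. Members without overlap with Control numbered 2 higher and 3 lower in ASC, where the background was 9.94% and 9.01% of all genes, 2 higher and 4 lower in As300 (14.5% and 15.4%), and 2 higher and 4 lower in ASC_As300 (13.5% and 12.2%). These separations share the same 3 Control tumors. The share of all genes with all other tumors on the same side of Control was not counted. Without Control replicate 1 the members without overlap in either direction were 6, 6 and 6, beside 31.3%, 40.4% and 38.4% of all genes in the same 2 Control tumors against 3. Socs1 and Socs3 were also higher without overlap in ASC_As300 than in As300 (11.3% of all genes) and in the 6 tumors with ASC than in the 6 without (1.68%). The median log2 fold change of the 8 members was -0.215 in ASC, -0.22 in As300 and -0.15 in ASC_As300, beside 0.00, -0.03 and -0.02 for all genes tested.

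Whether iAs acted differently with and without ASC was asked by the interaction term. For Socs1 it was -0.72 on the log2 scale (SE 0.25, unadjusted p = 0.0142 and adjusted p = 0.312 in edgeR), with iAs differences of 0.73 without ASC and 0.01 with ASC. The terms of Socs4, Socs6 and Socs7 were 0.37, 0.36 and 0.33, with edgeR unadjusted p-values of 0.0465, 0.0386 and 0.0387 and adjusted p-values of 0.361, 0.348 and 0.348. Thus 4 of 8 members had an unadjusted p under 0.05, beside 13.6% of all genes, and 0 of 8 were called, as were 0 of all genes by edgeR (0%), whereas DESeq2 called 29 genes higher and 145 lower, with no member among them. The iAs effect over both ASC levels was 0.37 for Socs1, 0.15 for Socs3 and -0.24 for Socs7 (adjusted p = 0.212, 0.225 and 0.187), and edgeR called 0 genes there, with 16% of genes and 3 of 8 members at an unadjusted p under 0.05 and 30 genes called higher and 84 lower by DESeq2. In ASC_As300 against ASC, edgeR called 0 genes (0%), 3.21% of genes and 0 of 8 members had an unadjusted p under 0.05, and DESeq2 called 4 genes higher and 7 lower, none of them a member.

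The ligands and receptors upstream of the family were read from lists of pathway genes. As the background for counts of list genes at an unadjusted p under 0.05, 15.4% of all genes passed it in the ASC tumors, 24.1% in the As300 tumors and 15.2% in the ASC_As300 tumors, each set against Control. Of 21 ligand genes 17 were tested. Ifng, which encodes interferon gamma, was at 0.0868 to 0.23 CPM in Control tumors, 1.72 to 2.31 in ASC, 0 to 0.406 in As300 and 1.86 to 3.52 in ASC_As300 tumors. It was called higher in ASC_As300 (log2 fold change 4.14, SE 0.83, adjusted p = 0.0347), and in ASC its log2 fold change was 3.86 with an adjusted p of 0.0563. Over both iAs levels Ifng was called at 3.63 (SE 0.57, adjusted p = 0.00385), as was Il15 at 0.88 (adjusted p = 0.00733). Ifng was the only ligand called against Control, and Il15 was called in ASC_As300 against As300 (log2 fold change 1.07, adjusted p = 0.0384). The ligand medians of 0.08, -0.10 and -0.04 stood beside 0.00, -0.03 and -0.02 for all genes. Of 29 receptor chains tested, 3 were called higher in ASC, 0 in As300 (6 with an unadjusted p under 0.05 in edgeR, 0 called by DESeq2) and 4 in ASC_As300. These were Il2rb, a chain of the interleukin 2 and 15 receptors (1.38 in ASC, 1.41 in ASC_As300), Il15ra (1.24 and 1.17), Crlf2, a chain of the TSLP receptor (0.79 and 1.03), and Il12rb1, called in ASC_As300 (1.98) and over both iAs levels (1.865, adjusted p = 0.00354). Il12rb1 was at 1.09 to 2.73 CPM in Control tumors, 5.71 to 7.16 in ASC, 1.001 to 2.77 in As300 and 4.58 to 8.16 in ASC_As300 tumors. No receptor chain was called lower.

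Among the JAK kinases and STAT factors, Stat2, which carries type I interferon signals, was called higher with ASC and no JAK was called. Stat2 was at 23.1 to 33.2 CPM in Control tumors, 52.0 to 68.5 in ASC, 18.4 to 26.7 in As300 and 46.6 to 56.2 in ASC_As300 tumors, so that As300 overlapped with Control and the tumors with ASC did not. Its log2 fold change was 1.11 in ASC (adjusted p = 0.00644) and 0.865 in ASC_As300 (adjusted p = 0.0289). In As300, Stat4, which carries interleukin 12 signals, was called lower at -1.31 (adjusted p = 0.043), from 3.21 to 5.29 CPM in Control to 1.28 to 1.98 CPM. As for every call in As300, the instability of that comparison to single tumors applies.

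Of 15 STAT3 targets, Cebpb, a transcription factor of acute phase and macrophage genes, was the 1 called in each comparison against Control, with log2 fold changes of 0.795, 1.09 and 0.75 and adjusted p-values of 0.0278, 0.0356 and 0.0336. Its CPM was 14.1 to 17.4 in Control tumors, 21.6 to 29.0 in ASC, 27.8 to 35.9 in As300 and 23.5 to 28.7 in ASC_As300 tumors. The medians of this list were 0.38, 0.00 and 0.23. Of 12 STAT5 targets, 0 were called against Control by edgeR (0, 2 and 2 with an unadjusted p under 0.05) or by DESeq2, with medians of -0.10, -0.27 and -0.17, and Cish and Socs2, which are not on that list, were not called either. The smallest p-values there were those of Pim2 in ASC (-0.29, adjusted p = 0.41), Bcl2 in As300 (-0.46, adjusted p = 0.102) and Bcl2l1 in ASC_As300 (0.27, adjusted p = 0.189).

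The partners that SOCS proteins use were measured too. Of 8 elongin, cullin and ubiquitin-transfer genes, 0 were called against Control by edgeR (4, 5 and 3 with an unadjusted p under 0.05, beside 15.4%, 24.1% and 15.2% of all genes) or by DESeq2, with medians of 0.03, 0.04 and 0.01. Elob, elongin B, came closest, at 0.49, 0.56 and 0.445 with adjusted p-values of 0.0872, 0.043 and 0.109, and the As300 value missed the 1.5-fold minimum. Of 13 other genes with a SOCS box, Spsb2, an adaptor for nitric oxide synthase turnover, was called higher in As300 (0.72, adjusted p = 0.0453), and no other was called against Control. Of 13 other inhibitors of cytokine signaling, 0 were called against Control by edgeR, 4, 5 and 2 had an unadjusted p under 0.05, and DESeq2 called 1, 0 and 0. Ptpn1, a phosphatase that acts on JAK2, was higher by 0.40 in ASC_As300 (adjusted p = 0.0151), under the minimum fold. Usp18, which restrains type I interferon receptors, was at 1.303 in ASC (adjusted p = 0.117) and was called over both iAs levels (1.12, adjusted p = 0.0298). Of 14 growth hormone, insulin and receptor tyrosine kinase genes, 0 were called against Control by edgeR (2, 5 and 4 with an unadjusted p under 0.05) or by DESeq2, with medians of 0.05, -0.21 and -0.19. The closest were Erbb2 in ASC (0.55, adjusted p = 0.0775), Met in As300 (-0.43, adjusted p = 0.0515) and Erbb2 in ASC_As300 (0.43, adjusted p = 0.15).

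Some markers of T cells, NK cells and macrophages differed between the tumors with and without ASC. The summed level of 11 T cell markers was 45.9 to 143 CPM in Control tumors, with the highest value in Control replicate 1, 98.2 to 128 in ASC, 44.3 to 52.7 in As300 and 87.7 to 116 in ASC_As300 tumors. The sum of 7 NK (natural killer) cell markers was 8.51 to 15.4 CPM in Control tumors, 19.9 to 26.1 in ASC, 7.06 to 9.43 in As300 and 23.1 to 27.8 in ASC_As300 tumors. None of these markers was at 0 in all tumors of a group. Over both iAs levels 1 of 11 T cell markers (Cd8a, 2.20, adjusted p = 0.0381) and 2 of 7 NK cell markers (Klrc1, 2.48, and Klrk1, 1.77) were called higher with ASC. Against Control, the ASC tumors had 0 of 11 T cell markers called, with 9 higher and 2 lower. The lower markers were Cd4, at a mean of 5.43 CPM in ASC and 8.68 in Control, and Cd2, at 3.58 and 4.45. In ASC against Control, 1 of 7 NK cell markers, Klrc1, was called, and 2 of 7 lay lower, with Ncr1 at a mean of 0.736 CPM in ASC and 1.06 in Control and Klrb1c at 0.998 and 1.01. Of 9 macrophage markers, C1qa and C1qb were called higher in ASC and in ASC_As300 against Control, and the sum over the list was 1375 to 1781 CPM in Control tumors, 1595 to 2444 in ASC, 1701 to 1847 in As300 and 1788 to 2253 in ASC_As300 tumors. The epithelial marker Krt8 was lower with ASC (log2 fold change -2.03 over both iAs levels, adjusted p = 0.00632). It was the 1 of 7 epithelial markers called there, and 2 of the 7 lay higher and 5 lower. Krt8 was at 62.1 to 337 CPM in Control tumors, with the highest value in Control replicate 1. Its range was 26.2 to 44.8 CPM in ASC, 91.3 to 113 in As300 and 24.05 to 31.1 in ASC_As300 tumors. In As300 the T cell, NK cell and macrophage sums overlapped with Control, while Socs1 lay above all 3 Control tumors. C1qa was at 243 to 249 CPM in As300 tumors, above its Control range of 159 to 190. C1qb was at 234 to 245 CPM, above its Control range of 142 to 191. Of the 9 macrophage markers, 6 lay higher and 3 lower in As300 than in Control, and 0 were called. The neuronal markers Syn2 (2.08) and Stmn2 (1.23) were called higher in As300. The part of cell content in the Socs1 values was not tested.

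The 5 genes most like Socs1 over the 12 tumors, by Pearson's r of log2 CPM among all tested genes, were Ogfr (0.965), H2-T23 (0.959), Efhd2 (0.95), Crlf2 (0.949) and Psmb10 (0.948). H2-T23 encodes a nonclassical class I molecule and Psmb10 an immunoproteasome subunit. Their log2 differences with ASC over both iAs levels were 0.60, 1.02, 0.40, 0.64 and 1.60, beside 1.096 for Socs1. Within the family, Socs3 was closest to Socs1 (r = 0.87), and Socs6 was farthest (r = -0.67). These values describe 12 points that share libraries and fall into tumors with and without ASC.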

How the data were processed

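RNA-seq of 12 tumors (4 groups of 3, grouped by their labels) was processed from the deposited table. The authors deposited whole-number counts per Ensembl gene, without normalization, made from paired-end reads of stranded poly(A) libraries. The submitters' processing notes name cutadapt 1.1.0, HISAT2 2.0, StringTie 1.3.4, DESeq2 and edgeR. The genome build, the annotation and the step that gave counts are not given in the sources used here. More genes had 4 counts than 3 or 5 in every tumor, so a count may not be a read pair, and division by 4 was tried for that reason.

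Symbols, positions and exon lengths came from GENCODE M21 (GRCm38), which named 55141 of 55401 genes. In R 4.3.3, edgeR 4.0.16 (filterByExpr by group, TMM, quasi-likelihood F test, 1 mean per group over all 12 tumors) tested 20818 genes for 8 comparisons, adjusted by Benjamini-Hochberg over all genes. A call needed adjusted p under 0.05 and at least 1.5-fold. log2 CPM used a prior count of 2. Alternatives were DESeq2 1.42.0, its size factors in edgeR, no filter, at least 10 counts in every tumor, only the 6 tumors compared, a replicate block, counts divided by 4, no minimum fold, exon length by the longest transcript, and leaving out each tumor. Leaving out Control replicate 1 for counts of members without overlap was chosen after seeing the data. The procedure was tested on simulated data. No tumor was left out. Total counts of 39157647 to 55168642 set the precision of each level.

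The members and the gene lists were chosen with earlier results of these data known. Named genes were all 8 members, up to 4 called genes with the smallest adjusted p in a list and comparison (at most 1, that with the smallest p, where none was called), and the 5 genes with the highest r for each member called. Promoters came from RefSeq. An exact test of 3 against 3 tumors cannot reach p under 0.05, so p-values come from the fitted models. Some genes and 1 gene list are not reported here.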

Additional observations from a re-analysis of the deposited data

How the results depend on the processing

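Of 731 log2 fold changes of members under an alternative, 709 kept their direction and side of the threshold. The calls of Socs1 held under every alternative run, at 1.34 to 1.61 in ASC, 1.38 to 1.61 in ASC_As300 and 1.04 to 1.17 over both iAs levels. In As300 the members called went from 0 to 1 (Socs1) with DESeq2, DESeq2 size factors, at least 10 counts in every tumor and counts divided by 4, and ranged from 0 to 1 when a tumor was left out. DESeq2 also called 1 member in ASC_As300 against As300. Without a minimum fold 2 members, Socs1 and Socs3, were called in ASC_As300 and 2 over both iAs levels. Of the 20818 genes tested, 204 were then called higher and 9 lower in ASC_As300, and 368 higher and 29 lower over both iAs levels. Socs1 in ASC_As300 against ASC changed sign to -0.005 with DESeq2 size factors, -0.004 at 10 counts, -0.002 with only the 6 tumors compared and -0.004 with counts divided by 4, and spanned -0.135 to 0.131 when a tumor was left out. Leaving out a tumor also moved Cish from -0.03 to 0.193 in ASC, -0.024 to 0.31 in As300 and -0.015 to 0.207 in ASC_As300, and Socs5 from -0.134 to 0.02 in ASC_As300. With the replicate block Socs1 was 1.44 in ASC and 1.45 in ASC_As300, and no call changed. Same-numbered tumors deviated with r of -0.124 to 0.172, 2 of 18 pairs over 0.1, so the numbers were not taken to pair tumors. The longest transcript moved CPM per kb to 0.95 for Socs2, 25.98 for Socs5, 8.69 for Socs6 and 3.11 for Cish, which put Socs6 above Socs4. By group means, it also put Socs6 above Socs1 in ASC and ASC_As300 tumors and Socs5 above Socs3 in every group. The gene sets of the tools differed, since DESeq2 took the 33928 genes with any count and edgeR the 20818 that passed the filter. Over these sets, DESeq2 against edgeR called 450 and 150 in ASC, 816 and 220 in As300, 390 and 168 in ASC_As300, 399 and 178 in ASC_As300 against As300, and 478 and 301 over both iAs levels. Other settings moved the As300 count to 8 higher and 0 lower without a filter, 339 and 115 at 10 counts, 354 and 106 with counts divided by 4, and 328 and 265 without a minimum fold, and the ASC count to 87 and 2 with only the 6 tumors compared, where As300 had 122 and 34 and ASC_As300 178 and 41. Leaving out a tumor gave 105 to 355 in ASC, 90 to 203 in ASC_As300 and 95 to 277 in ASC_As300 against As300. The causes were not tested.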
